A study of Mus musculus with 6 samples.

Results

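The SOCS family consists of Cish and Socs1 to Socs7, genes of intracellular proteins that hold an SH2 domain and a SOCS box. All 8 had a row in the deposited table of 14868 genes. The family was taken by gene symbol, but with earlier results of these data known, so counts of called members are not independent support. The genes were read in cultures started from naive CD4+ T cells of C57BL/6J background. The cells were either wild type (WT) or Ikzf4-/-, which lack Eos, a zinc finger transcription factor of the Ikaros family. All cultures received 10 ng/mL IL-4 and 10 µg/mL anti-Ifng, and were stimulated for 72 h by plate-bound anti-CD3 (5 µg/mL) together with anti-CD28 (2 µg/mL), conditions that drive T helper 2 (Th2) differentiation. There were 3 total RNA libraries per genotype, and the groups differed in no other label. The labels give no age, sex, batch or description of the Ikzf4 allele, and do not say whether replicates came from separate animals, so p-values measure only the spread between these libraries.

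Cytokine receptors signal through JAK kinases, which phosphorylate STAT factors. STAT factors in turn switch on some SOCS genes, whose proteins bind receptors or JAKs and damp the signal. The SOCS box recruits elongin B, elongin C and cullin 5, a ubiquitin ligase that marks bound proteins for degradation. Cish and Socs1 to Socs3 are the classical cytokine-induced members, here called STAT-induced. Socs4 to Socs7, with longer amino-terminal regions, are usually described as less dependent on cytokines and are here called constitutive. In T helper cells, Cish and Socs2 respond strongly to IL-2 through STAT5, Socs1 limits interferon gamma and IL-4 signals, and Socs3 binds gp130 and limits IL-6-type signals.

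Promoter sequences are shown first because the members are divided by their induction through STAT factors. The RefSeq promoter table (GRCm38.p6) held 4 of the 8 members: Cish, Socs1, Socs3 and Socs4. Each window runs 5′ to 3′ on the gene's strand, from 250 bases before the start site to 30 bases after it. Capitals mark matches to TTCNNNGAA, the palindromic core bound by most STAT dimers.
Cish, chr9:107296409-107296688, plus strand: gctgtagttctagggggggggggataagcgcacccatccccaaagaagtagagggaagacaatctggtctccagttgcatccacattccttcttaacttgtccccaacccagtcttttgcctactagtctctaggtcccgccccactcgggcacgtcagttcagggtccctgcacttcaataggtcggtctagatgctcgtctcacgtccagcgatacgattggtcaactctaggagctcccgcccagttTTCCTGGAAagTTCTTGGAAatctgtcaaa
Socs3, chr11:117969337-117969616, minus strand: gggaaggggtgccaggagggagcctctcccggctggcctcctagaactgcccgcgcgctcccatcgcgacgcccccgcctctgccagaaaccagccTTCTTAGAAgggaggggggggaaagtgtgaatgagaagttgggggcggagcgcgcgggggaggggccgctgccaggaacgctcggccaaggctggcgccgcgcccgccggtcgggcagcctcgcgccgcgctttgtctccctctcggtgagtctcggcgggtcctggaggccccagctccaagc
Socs1, chr16:10785507-10785786, minus strand: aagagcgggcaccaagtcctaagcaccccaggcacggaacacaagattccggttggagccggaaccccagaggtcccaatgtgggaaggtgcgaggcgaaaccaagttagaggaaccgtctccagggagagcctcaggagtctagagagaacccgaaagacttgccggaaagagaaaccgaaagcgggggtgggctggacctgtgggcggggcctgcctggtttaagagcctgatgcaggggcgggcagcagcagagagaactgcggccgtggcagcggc
Socs4, chr14:47276670-47276949, plus strand: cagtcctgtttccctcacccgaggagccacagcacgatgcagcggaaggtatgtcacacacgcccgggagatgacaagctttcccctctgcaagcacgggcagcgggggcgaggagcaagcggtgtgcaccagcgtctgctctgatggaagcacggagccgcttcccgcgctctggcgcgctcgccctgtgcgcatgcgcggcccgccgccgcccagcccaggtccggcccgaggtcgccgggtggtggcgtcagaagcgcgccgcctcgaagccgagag
The Cish window held 2 matches, TTCCTGGAA at bases 1 to 9 and TTCTTGGAA at bases 12 to 20 after the start. At least 2 matches were found in 0.408% of the 32851 windows of this length in the table. The Socs3 window held 1 match, TTCTTAGAA, from base -154 to -146, and 7.83% of all windows held at least 1. No TTCNNNGAA lay in the windows of Socs1 and Socs4. The same half-sites with 4 bases between TTC and GAA, the spacing preferred by STAT6, were in none of these 4 windows and in 6.5% of all windows. GGGAA, the core motif of the Ikaros family, was sought on both strands. It occurred once in the Cish and Socs1 windows, 2 times in that of Socs3 and 3 times in that of Socs4. Of all windows, 60.1% held at least 1, 24.7% at least 2 and 7.62% at least 3. No GGGAA match overlapped a TTCNNNGAA match. For Cish and Socs3 the start used lies inside the gene bounds given below, so base positions are relative to that start only. These are letter matches in short windows, not measured binding.

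Values below are normalized read counts, that is, reads per gene divided by 1 size factor per library. The implied depth ran from 34701390 to 40604346 reads per library, and the lowest value of any member rested on about 212 reads, with a counting error of 6.87%. Ikzf4 was at 756, 499.6 and 483 in WT and at 25.2, 10.5 and 38.2 in Ikzf4-/- libraries, so every library matched its label. Of 6 T cell markers all had rows, with summed levels of 75363 to 78186 in WT and 77763 to 81794 in Ikzf4-/- libraries. The 4 Th2 markers (Il4, Il5, Il13, Gata3) summed to 11978 to 13163 in WT and 8982 to 10313 in Ikzf4-/- libraries. Gata3 made up most of these sums, at 7594 to 9585 in WT and 6620 to 7629 in Ikzf4-/- libraries. It was not called (limma adjusted p = 0.146), so the sums say little of the 3 cytokines, which are given below. The B cell marker Ms4a1 and the myeloid Lyz2 and Csf1r had no row, and the rows that were present summed to at most 90.4 for B cells and 96.1 for myeloid cells. CD8 markers summed to 236 to 423 in WT and 232 to 374 in Ikzf4-/- libraries, and NK markers to 169 to 367 and 186 to 335. The part of other cells in the results was not tested, and in bulk RNA fewer cells of a type and less RNA per cell cannot be told apart. On the first principal component of all genes (40.2% of the variance), WT replicate 1 lay at -41.3, against -12.5 and -5.26 for the other WT libraries. Ikzf4-/- replicates 1 to 3 lay at 11.1, 17.1 and 30.8. The differences of the called members are also given without WT replicate 1.

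Of the STAT-induced members, Socs1, Socs2 and Socs3 fell in Ikzf4-/- cells, and Cish was not called. None of the 4 constitutive members was called. A gene was called at a limma p-value adjusted over all 14864 genes tested under 0.05. Such calls were made for 1.77% of all genes, lower calls for 1.2% and higher calls for 0.572%. Of the STAT-induced members, 3 of 4 were called, all lower, with a median log2 fold change of -0.55. The authors' deposited table called the same number, 3 of 4, against 6.34% of the genes to which it gave an adjusted p. With the replicate number as a block limma also called 3 of the 8 members, against 5.07% of all genes. The constitutive members had 0 of 4 called by limma, 0 at an unadjusted p under 0.05 (18.1% of all genes) and 0 in the authors' deposited table, with a median of 0.07. Over all genes tested the median was 0.00479. WT and Ikzf4-/- ranges were separate for 3 of the 8 members, Socs1, Socs2 and Socs3, as for 23.1% of all genes (12.2% lower). All 8 members passed the filter of a mean of at least 10.

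**Figure D1:**
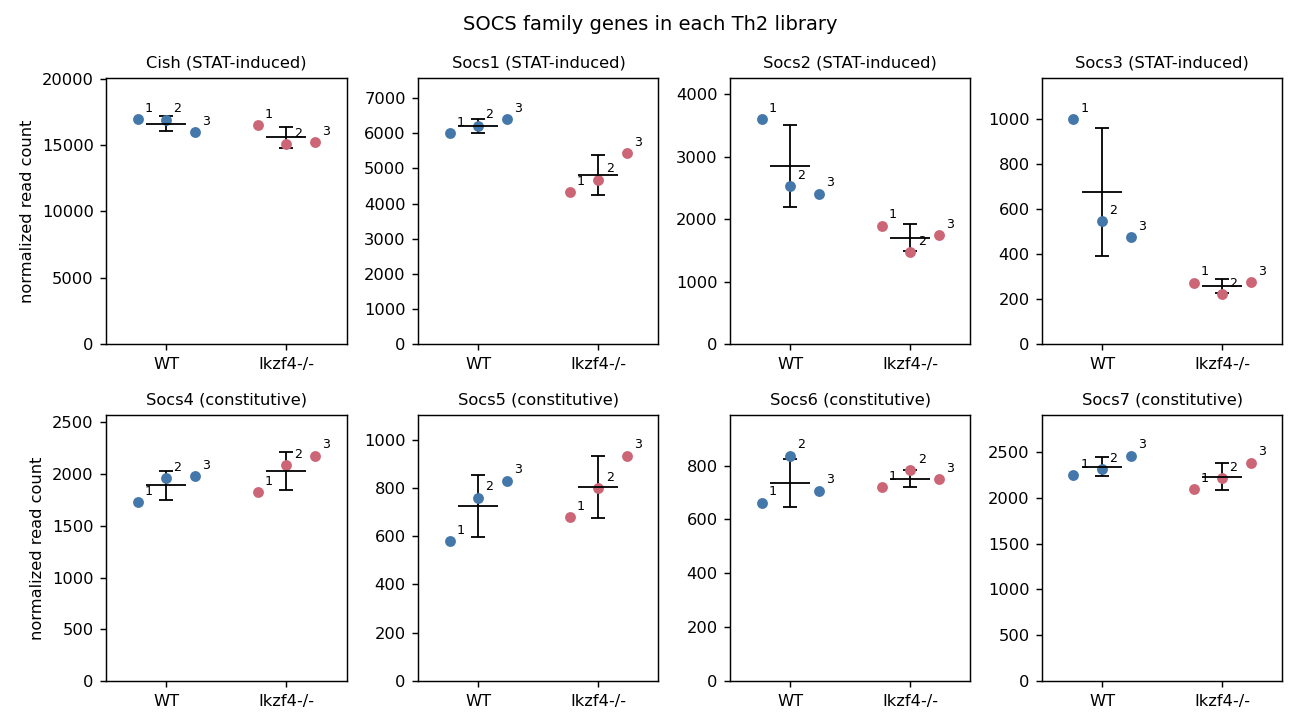
Normalized read count (vertical axes, from 0) of each SOCS family gene in 3 WT and 3 Ikzf4-/- libraries; points carry the replicate number, and bars give the mean and SD. Socs1, Socs2 and Socs3 lie lower in all 3 Ikzf4-/- libraries than in any WT library, while the other 5 genes overlap.

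Socs3, the feedback inhibitor of receptors that use gp130 (ENSMUSG00000053113, chromosome 11, 117966079 to 117970047, minus strand, GRCm38), showed the largest difference of the family. Its normalized read count was 1001, 546 and 477 across WT replicates 1 to 3, against 273, 222 and 277 across the Ikzf4-/- replicates. WT replicate 1 stood at 1.95 times the mean of the other WT libraries, and the lowest WT library still lay above the highest Ikzf4-/- library. The mean fell from 675 ± 284 to 258 ± 30.9 (SD, n = 3 each). On the log2 scale this was -1.32 ± 0.23 (SE), with a 95% confidence interval from -1.82 to -0.81 (limma adjusted p = 0.0258). Without WT replicate 1 the log2 fold change was -0.99 (limma adjusted p = 0.00343), but 4 of the 6 fits that left out 1 library lost the call, with limma adjusted p-values from 0.0506 to 0.0894. Socs3 ranked 66th from the lowest fold change and 74th by p-value of all genes tested.

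Socs2, a STAT5-responsive member known for restraining growth hormone signals (ENSMUSG00000020027, chromosome 10, 95385362 to 95417180, minus strand), was intermediate. Its normalized read count was 3608, 2529 and 2412 in WT and 1899, 1478 and 1747 in Ikzf4-/- replicates 1 to 3. Again WT replicate 1 was the highest library, and the groups did not overlap. The mean of 2849.6 ± 659 in WT fell to 1708 ± 213 (SD, n = 3 each). The log2 difference of -0.72 (SE 0.14) had a 95% confidence interval from -1.03 to -0.42 (limma adjusted p = 0.0331). Without WT replicate 1 the log2 fold change was -0.54 (limma adjusted p = 0.0101). The Socs2 call was lost in 4 of the 6 such fits (limma adjusted p from 0.0615 to 0.111). Socs2 lies on the same chromosome as Ikzf4, 33.2 Mb from it.

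Socs1, which inhibits JAK kinases directly (ENSMUSG00000038037, chromosome 16, 10782240 to 10785536, minus strand), had the smallest difference among the called members. Its normalized read count was 6006, 6216 and 6407 in WT and 4328, 4679.7 and 5442 in Ikzf4-/- replicates 1 to 3. WT libraries lay close together, and Ikzf4-/- replicate 3 came nearest to them. From a WT mean of 6209.8 ± 201 it fell to 4816 ± 569.6 (SD, n = 3 each). This was a log2 difference of -0.37 (SE 0.07; limma adjusted p = 0.0375), and its 95% confidence interval ran from -0.54 to -0.21. Without WT replicate 1 the log2 fold change was -0.40 (limma adjusted p = 0.0217). For Socs1 too, 4 of the 6 such fits ended the call (limma adjusted p from 0.0522 to 0.123), as did a correction for GC content and length (-0.26, adjusted p = 0.146). Unlike Socs2 and Socs3, Socs1 was not high in WT replicate 1, which held the lowest WT value.

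Cish (ENSMUSG00000032578, chromosome 9, 107296026 to 107302784, plus strand), which binds the IL-2 receptor and T cell receptor machinery, was the most abundant member. Its normalized read count was 16957, 16909.5 and 15955 in WT and 16497, 15071 and 15214 in Ikzf4-/- replicates 1 to 3. Ikzf4-/- replicate 1 lay within the WT range and the other Ikzf4-/- libraries below it. The means were 16607 ± 565 and 15594 ± 785 (SD, n = 3 each). The log2 difference of -0.09 was not called (limma adjusted p = 0.359). Its 95% confidence interval ran from -0.20 to 0.02, which leaves a decrease to 0.871 of the WT level within it. Of the Cish exons, 7.46% overlap those of the antisense gene Gm17041 and 4.07% those of the pseudogene Gm17040, and use of strand in counting is not given in the sources used here. Gm17040 stood at 74.5 to 99.0 in the 6 libraries.

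**Figure D2:**
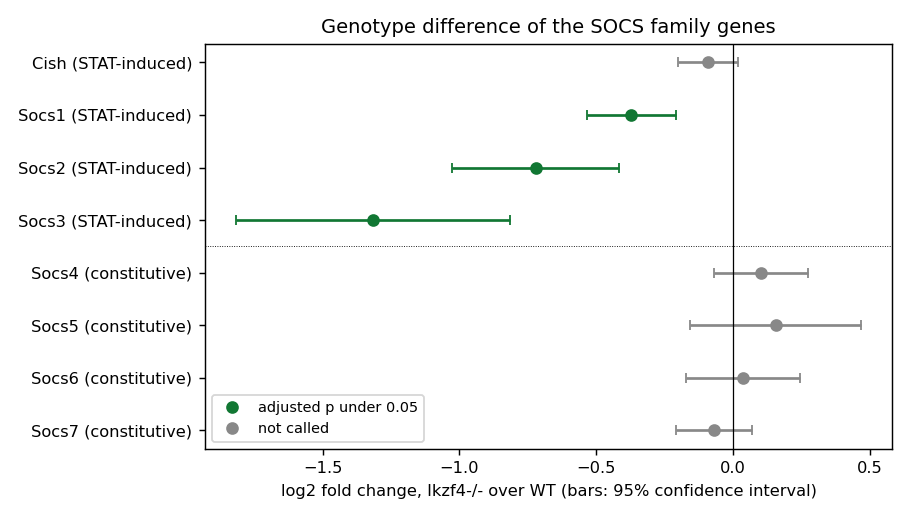
Log2 fold change of Ikzf4-/- over WT (horizontal axis) for each SOCS family gene, with 95% confidence intervals from limma over 3 libraries per genotype. The intervals of Socs1, Socs2 and Socs3 lie below 0, from -1.82 to -0.21 in all, and those of Cish and Socs4 to Socs7 include 0.

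The interval of Socs3, with an upper end of -0.81, does not meet that of Socs1, with a lower end of -0.54. That of Socs2 overlaps both, and the differences between members were not tested. Socs1 fell to 77.6% of its WT mean, Socs2 to 59.9% and Socs3 to 38.2%.

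Among the constitutive members, Socs4 (ENSMUSG00000048379, chromosome 14, 47276931 to 47296102), reported to act on EGF receptor signals, was at 1731, 1961 and 1981 in WT and 1829, 2088 and 2179 in Ikzf4-/- replicates 1 to 3. The groups overlapped (log2 fold change 0.10, 95% confidence interval -0.07 to 0.27, limma adjusted p = 0.536). Socs5 (ENSMUSG00000037104, chromosome 17, 87107679 to 87137839), reported to bind the IL-4 receptor, was at 580.2, 759 and 829.8 in WT and 679, 798 and 933 in Ikzf4-/- libraries. It was the most variable of these 4, and its log2 fold change of 0.16 had a 95% confidence interval from -0.16 to 0.47 (limma adjusted p = 0.615). An increase to 1.38 times or a decrease to 0.897 of the WT level lies within that interval.

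Socs6 (ENSMUSG00000056153, chromosome 18, 88665224 to 88927481), known to bind the receptor KIT, was at 662, 837 and 707 in WT and 720.3, 782 and 750.5 in Ikzf4-/- libraries. All Ikzf4-/- values fell between the lowest and highest WT values (log2 fold change 0.04, 95% confidence interval -0.17 to 0.24, limma adjusted p = 0.881). Its sign changed, to -0.035, without WT replicate 1. Socs7 (ENSMUSG00000038485, chromosome 11, 97362551 to 97398542), which binds insulin receptor substrates, was at 2248, 2318 and 2461 in WT and 2099, 2216 and 2385 in Ikzf4-/- libraries, again overlapping (log2 fold change -0.07, 95% confidence interval -0.21 to 0.07, limma adjusted p = 0.609). The means of these 4 genes in WT and Ikzf4-/- cells were 1891 ± 139 and 2032 ± 182 for Socs4, 723 ± 129 and 803 ± 127 for Socs5, 735 ± 90.6 and 751 ± 30.9 for Socs6, and 2343 ± 109 and 2234 ± 144 for Socs7 (SD, n = 3 each).

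Set against each other in each library, the classes lay closer together in Ikzf4-/- cells. The mean log2(value + 1) of the 4 STAT-induced members minus that of the 4 constitutive members was 1.98, 1.41 and 1.34 across WT replicates 1 to 3. Across the Ikzf4-/- replicates the same difference was 1.08, 0.75 and 0.87. Every Ikzf4-/- library lay below every WT library, and the mean difference went from 1.58 ± 0.35 to 0.90 ± 0.16 (SD, n = 3 each). The STAT-induced mean was lower by 0.63 on the log2 scale (11.85 against 11.22), while the constitutive mean differed by 0.06 (10.27 against 10.33). With Socs3 left out, the difference between classes was 2.69, 2.30 and 2.27 in WT and 2.13, 1.85 and 1.93 in Ikzf4-/- libraries, which did not overlap either. This contrast follows from the members' own values and carries no test.

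Levels were compared between genes per kilobase of annotated exon, with the exons of all transcripts merged. In WT cells Cish (2587 ± 88.1) and Socs1 (2135 ± 69.0) stood far above the rest. Then came Socs7 (322 ± 14.9), Socs2 (299 ± 69.2), Socs4 (275 ± 20.2) and Socs3 (233 ± 98.3), in which each neighbour's range overlapped the next. Socs5 (113 ± 20.1) and Socs6 (64.8 ± 7.99) were lowest (normalized count per kb, SD, n = 3 each). The place of Socs2 depended on the length used, an alternative chosen after seeing the data. Per kilobase of the longest annotated transcript, Socs2 was at 850.5, 596 and 569 across WT replicates 1 to 3, above every value of Socs7 (at most 351) and Socs4 (at most 288).

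In Ikzf4-/- cells Cish (2429 ± 122) and Socs1 (1656 ± 196) again led, followed by Socs7 (307 ± 19.8) and Socs4 (295 ± 26.4), whose ranges overlapped. On merged exons Socs2 (179 ± 22.3) came next and lay below Socs4 in all 3 libraries. Per kilobase of the longest transcript this order reversed, with Socs2 at 448, 348 and 412 and Socs4 at 266, 304 and 317 across the Ikzf4-/- replicates. Socs3 (89.1 ± 10.7) lay below Socs5 (125 ± 19.8) in all 3 libraries, and Socs6 (66.2 ± 2.72) was last (normalized count per kb, SD, n = 3 each). Per kilobase of the longest transcript Socs3 (101 ± 12.1) also lay below Socs6 (124 ± 5.12) there. Of the family's level summed per kilobase of merged exons, Socs3 made up 5.64%, 3.14% and 2.79% across WT replicates 1 to 3, against 1.86%, 1.54% and 1.78% across the Ikzf4-/- replicates. Cish made up 42.9% in WT and 47.2% in Ikzf4-/- cells on average, and Socs1 made up 35.4% and 32.1%. Shares of 1 sum depend on each other, and the Cish level itself was 2587 per kilobase in WT and 2429 in Ikzf4-/- cells. The merged exons include those of all annotated transcripts, 14 for Socs2 and 5 for Cish. Which of these transcripts the cells use was not measured.

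**Figure D3:**
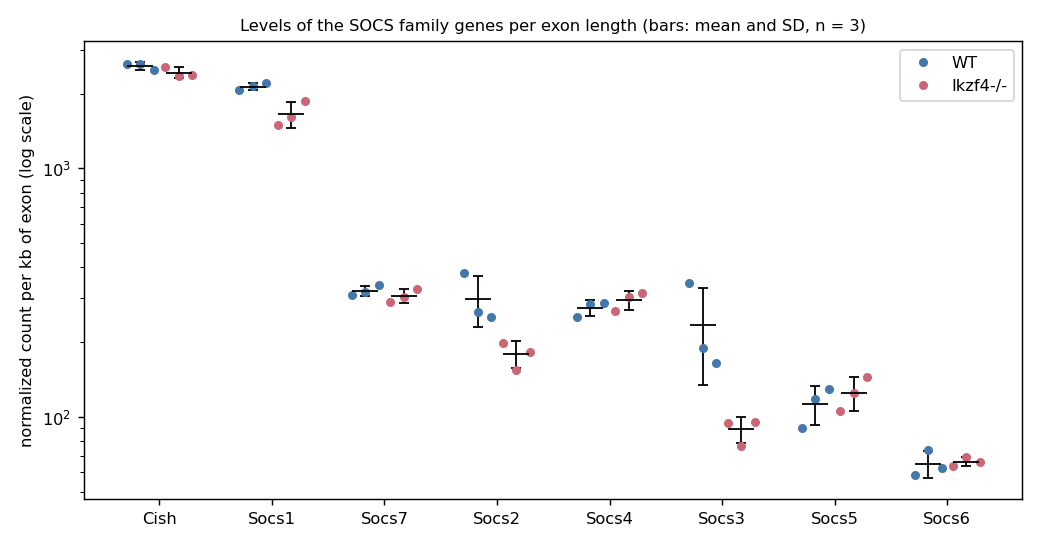
Normalized count per kilobase of annotated exon (vertical axis, log scale) for each SOCS family gene, ordered by WT mean; points are libraries and bars the mean and SD of 3. Cish and Socs1 stand above 1488 in every library, while no other member exceeds 379, and Socs3 stands beside Socs4 in WT and below Socs5 in Ikzf4-/- cells.

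The calls of the 3 lower members depended on single libraries. So did the calls over the whole table, which numbered 263 with all 6 libraries. They numbered 269, 75 and 523 without WT replicates 1, 2 and 3, and 48, 112 and 20 without Ikzf4-/- replicates 1, 2 and 3. Without WT replicate 2, 0 members were called, with limma adjusted p-values of 0.0898 for Socs1, 0.0615 for Socs2 and 0.0506 for Socs3. Leaving out Ikzf4-/- replicate 1 also gave 0 calls (0.0939, 0.0650 and 0.0681 in the same order), as did leaving out Ikzf4-/- replicate 2 (0.123, 0.106 and 0.0785). Without Ikzf4-/- replicate 3 only Socs1 was called (0.0197), with 0.111 for Socs2 and 0.0894 for Socs3. Leaving out WT replicate 3 kept Socs2 (0.0163) and Socs3 (0.0112) and not Socs1 (0.0522). The direction held in all of these fits: log2 fold changes ran from -0.46 to -0.30 for Socs1, from -0.83 to -0.54 for Socs2 and from -1.53 to -0.99 for Socs3. The correction that ended the Socs1 call removed trends with GC content and transcript length from each library. The longest Socs1 transcript has a GC content of 58.8% and that of Socs3 58.7%. The adjusted p-values given by the authors' deposited table were 0.00016 for Socs1, 0.0177 for Socs2 and 0.00366 for Socs3, beside log2 fold changes of -0.37, -0.74 and -1.39.

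**Figure D4:**
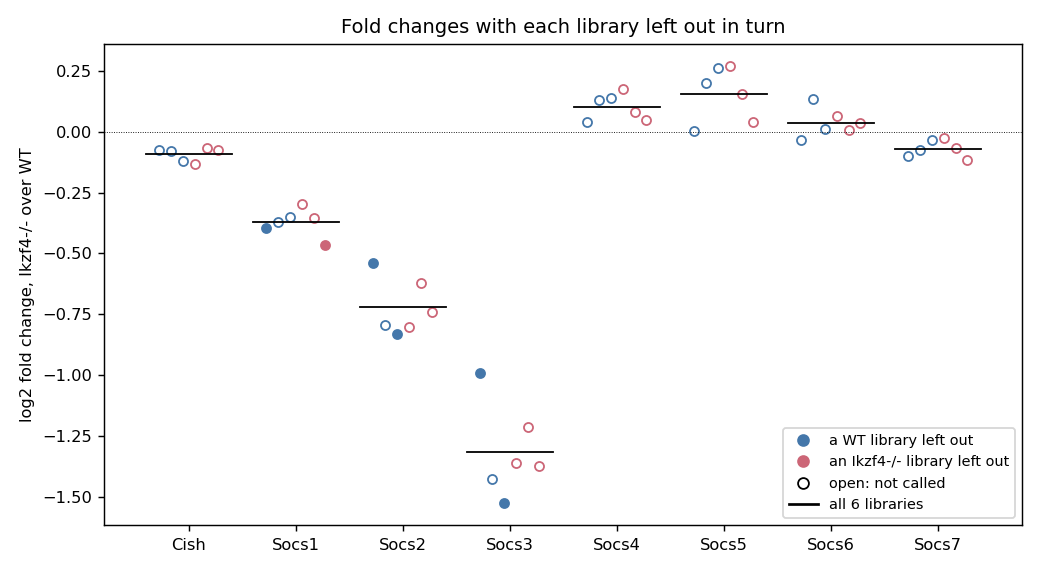
Log2 fold change of Ikzf4-/- over WT (vertical axis) for each SOCS family gene with 1 library left out at a time; filled points were called at a limma adjusted p under 0.05 and black lines give the value from all 6 libraries. Socs1, Socs2 and Socs3 stay below 0 throughout, from -1.53 to -0.30, but each is called in 2 of 6 fits. Over all genes these fits called from 20 to 523, against 263 with all 6 libraries.

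The genes most like each STAT-induced member were sought among 11592 genes outside the family with a mean of at least 50. Likeness was the root mean square difference between log2(value + 1) profiles over the 6 libraries, each centred on its own mean and not scaled by its spread, so a gene that varies little lies near any other such gene. Closest to Socs3 were Mt1 (0.12), a metallothionein, and Lama5 (0.15), a laminin chain, beside a spread of Socs3 itself of 0.74. Mt1 stood at 1781, 1002 and 936 in WT and 523, 432 and 427 in Ikzf4-/- libraries, so it too was highest in WT replicate 1. For Socs2 the closest genes were Nkain1 (0.075), Rnf19b (0.075), a ubiquitin ligase gene, and Fam241a (0.098). Rnf19b stood at 20089, 14233 and 12929 in WT and 10573, 9361 and 10154 in Ikzf4-/- libraries. Closest to Socs1 were Ctbp2 (0.043), a corepressor gene of low level here (57.5, 61.1 and 63.1 in WT), Mapkapk5 (0.066), a stress-activated kinase gene, and Adcy3 (0.069), an adenylate cyclase gene. Cish, which varied little (0.068), was closest to Glul (0.015), the glutamine synthetase gene, Zyx (0.0175), the gene of the adhesion protein zyxin, and Dcaf5 (0.0175). Of the genes named here limma called Mt1 (adjusted p = 0.0157), Rnf19b (0.0427) and Lama5 (0.0490). The genes were picked for likeness over the same 6 libraries, genotype difference included, so these calls are not independent support.

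The rest of the pathway was read from lists of known ligands, receptors, signalling proteins and targets, which overlap in part. Of 107 distinct genes tested outside the family, 20 were called, 19 lower and 1 higher, against 1.77% of all genes. The lists were chosen with earlier results of these data known, so these counts describe the setting of the SOCS genes and are not independent support. Leaving out WT replicates 1, 2 and 3 in turn gave counts of 29, 9 and 30. Over all genes the same fits called 269, 75 and 523. Without Ikzf4-/- replicates 1, 2 and 3 in turn the pathway counts were 4, 6 and 2, beside 48, 112 and 20 over all genes. After the GC content and length correction the pathway count was 12, beside 179 over all genes.

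Among 12 tested cytokine ligands, 5 fell, with a median log2 fold change of -0.68: Il4, Il10, Il13, Lif and Osm. Lif and Osm, ligands of gp130 receptors, differed by -1.05 (limma adjusted p = 0.00737) and -0.69 (0.0131) on the log2 scale. Il10 was at 743, 465 and 360.1 in WT and 179.6, 192 and 166 in Ikzf4-/- libraries (log2 fold change -1.48, limma adjusted p = 0.0157), with WT replicate 1 the highest, as for Socs3. Il4 (-0.87) and Il13 (-0.82) are, with Il5, cytokines that define Th2 cells. Il5 had a log2 fold change of -1.24 and separate groups, but was not called (limma adjusted p = 0.0529). Il2, whose receptor activates STAT5, lay the other way at 1189, 2039.7 and 2798 in WT and 3418, 3818 and 3706 in Ikzf4-/- libraries. The Il2 groups did not overlap, but the difference was not called (log2 fold change 0.94, limma adjusted p = 0.0621).

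Among 19 tested receptor genes, 3 fell (median of all 19 -0.14): Il10ra, Il4ra and Il2rb. Il10ra, the ligand-binding chain of the IL-10 receptor, which signals through STAT3, was at 1655, 1131 and 873 in WT and 626, 576 and 488 in Ikzf4-/- libraries (log2 fold change -1.07, limma adjusted p = 0.0258). Il4ra had a log2 fold change of -0.80 and Il2rb of -0.37. The gp130 gene Il6st was not called (log2 fold change -0.24, limma adjusted p = 0.244). The receptor genes Lifr and Osmr and the ligand gene Il6 had no row. Of 11 JAK and STAT genes only Stat3 was called, at 11394, 9924 and 9742 in WT and 8021, 8851 and 8128 in Ikzf4-/- libraries (log2 fold change -0.31, limma adjusted p = 0.0436). Jak3, the kinase of the common gamma chain, had -0.33 (0.0588). Stat5a (0.08, adjusted p = 0.612), Stat5b (-0.09, 0.458) and Stat6 (0.09, 0.397) were not called.

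Other targets of the same STAT factors were counted beside the SOCS genes. Of 13 other STAT5 targets, 7 fell, with a median log2 fold change of -0.45: Il2rb, Osm, the kinase genes Pim1 (-0.54) and Pim2 (-0.57), the survival gene Bcl2 (-0.45), the cyclin gene Ccnd3 (-0.28) and Myc (-0.42). Pim2 was at 3969.7, 3002 and 3042 in WT and 2334, 2130.5 and 2210.2 in Ikzf4-/- libraries (limma adjusted p = 0.0237). Cish, of the same class of targets, was not called, nor were Ccnd2 (-0.06, adjusted p = 0.560) and Bcl2l1 (0.03, 0.874).

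Of 6 genes of the IL-4 and STAT6 response, 3 fell (median of all 6 -0.67): Il4ra, Nfil3 (-0.68) and Xbp1 (-0.25). Of 10 other STAT3 targets, 4 fell and 1 rose (median of all 10 -0.29). Those that fell were Il10, Stat3, Junb (-0.41), an AP-1 subunit gene, and Bcl3 (-1.01), an atypical inhibitor of the NF-kappaB family. Bcl3 was at 1110.3, 621 and 550.3 in WT and 386, 333 and 358 in Ikzf4-/- libraries (limma adjusted p = 0.0436). The gene that rose, Bcl6, encodes a transcriptional repressor and was at 365, 510.4 and 469.7 in WT and 658, 746 and 718 in Ikzf4-/- libraries (log2 fold change 0.67, limma adjusted p = 0.0291).

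**Figure D5:**
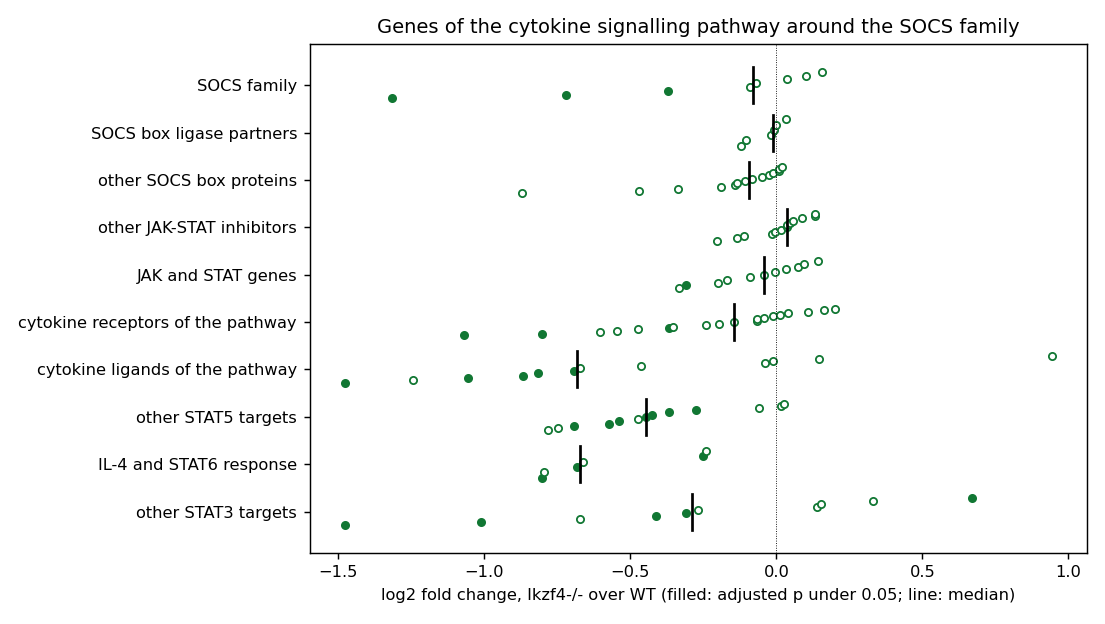
Log2 fold change of Ikzf4-/- over WT (horizontal axis) for every tested gene of the SOCS family and of 9 lists around it; filled points were called at a limma adjusted p under 0.05, and lines give each list's median. Calls number 5 of 12 ligands, 3 of 19 receptors, 1 of 11 JAK and STAT genes, 7 of 13 STAT5 targets, 3 of 6 IL-4 and STAT6 response genes, 5 of 10 STAT3 targets and 0 in the remaining 3 lists, beside 1.77% of all genes.

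Calls among genes that act with or beside the SOCS proteins were counted beside those over all genes. These were 1.77% by limma, 18.1% at an unadjusted p under 0.05 and 6.34% in the authors' deposited table. None of the 6 ligase partners (Elob, Eloc, Cul5, Cul2, Rnf7, Rbx1) was called by limma, 2 had an unadjusted p under 0.05, and 0 were called in the authors' deposited table. Cul5, the cullin that SOCS box proteins use, had a log2 fold change of -0.0028 with a 95% confidence interval from -0.16 to 0.15. Elob, which encodes elongin B, was at 5887, 5551 and 5849 in WT and 5316, 5431 and 5129.6 in Ikzf4-/- libraries, which did not overlap (log2 fold change -0.12, limma adjusted p = 0.195).

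Of 13 other inhibitors of the pathway (phosphatases, PIAS proteins, the adaptor Sh2b3, CBL ligases and Usp18), limma called 0, with a median of 0.04 and a range from -0.20 to 0.13. At an unadjusted p under 0.05 there were 2, and the authors' deposited table called 1. The lowest was Ptpn1, a phosphatase of JAK2 and TYK2, with -0.20 (limma adjusted p = 0.0889). Of 14 other SOCS box genes limma called 0, with 4 at an unadjusted p under 0.05 and 0 in the authors' deposited table. With lists of this size such counts are near those shares and show nothing particular to these genes. Spsb1 was at 1210.4, 509 and 369.8 in WT and 394, 327 and 288 in Ikzf4-/- libraries, where the groups overlapped and WT replicate 1 was again highest (log2 fold change -0.87, limma adjusted p = 0.197).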

How the data were processed

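RNA of 3 WT and 3 Ikzf4-/- Th2 cultures was sequenced. The submitters' processing notes name Trimmomatic 0.36, STAR 2.5.2b and DESeq2, and the builds GRCm38 and mm10, with no role or order; the counting tool is not given in the sources used here. The deposited sample columns hold a never-negative signal, read as counts that the authors divided by 1 size factor per library, since 100% of values were whole multiples (within 0.01) of 1 step per library. The log2 fold change, p-value and adjusted p-value columns are the authors' own, deposited in the same table. Recovered reads could not be accepted for Ikzf4-/- replicates 1 and 3, whose steps were close to 1, so there is no count test.

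The analysis used log2(value + 1), which understates changes of low genes. The 14864 genes with a mean of at least 10 were fitted with limma 3.58.1 (R 4.3.3), genotype as the only term, trended empirical Bayes, two-sided p-values and Benjamini-Hochberg adjustment over all genes; the procedure was tested on simulated data. Levels per kilobase used GENCODE M21 exons (GRCm38). Sequences are from RefSeq GRCm38.p6.

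The members and gene lists were chosen with earlier results of these data known. Named genes were the members, called list genes, some uncalled partners of the members, the 3 nearest patterns per STAT-induced member, and Ikzf4; Il2, Spsb1, Elob and other uncalled list genes were picked after their values were seen. Some genes, and 1 list of targets that is part of the pathway count, are not reported here.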

Additional observations from a re-analysis of the deposited data

How the results depend on the processing

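Of the members' fold changes under the alternatives, 121 held in direction and call, 13 were no longer called and 2 changed sign, both for Socs6. A member not called in the main fit counted as held when it stayed uncalled. All 13 lost calls were of Socs1, Socs2 or Socs3, each called in 2 of the 6 fits that left out 1 library. Of the 11 other alternatives, 10 called Socs1 and 11 called Socs2 and Socs3. Socs6 was at -0.025 with array weights, at -0.035 without WT replicate 1, and between -0.035 and 0.13 over all fits that left out 1 library. The 3 called members were called under every scaling, filter, pseudocount and array weight setting run and in the authors' deposited table; the GC content and length correction left 2 (not Socs1), and the cause was not tested. Leaving out 1 library gave 0 to 3 called members, 2 to 30 called pathway genes and 20 to 523 called genes over the whole table, against 3, 20 and 263. The last count was 75 without WT replicate 2, 523 without WT replicate 3, and 48, 112 and 20 without Ikzf4-/- replicates 1, 2 and 3.

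After the GC content and length correction 12 pathway genes were called, and 179 genes over the whole table. Array weights gave 482 genes over the whole table, and 815 were called in the authors' deposited table; the cause was not tested. Higher genes made up 32.3% of the calls, but 42.8% with equal library totals and 42.5% with the GC content and length correction and 18.75% without Ikzf4-/- replicate 1. No scaling moved the median of all genes by more than 0.027 on the log2 scale.

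With the replicate number as a block (replicate block), 754 genes were called over the whole table, 32 of the pathway genes and the same count of 3 members (adjusted p = 0.00703 for Socs1, 0.00243 for Socs2 and 0.00478 for Socs3). Deviations of same-numbered libraries correlated at 0.145, 0.0122 and 0.142, and those of unlike numbers at -0.163 to 0.0491. Whether a shared number marks a pair was not tested. WT replicate 2 correlated best with Ikzf4-/- replicate 3, so not every library was nearest to its own number. Only 3 libraries per genotype limit what can be seen for genes as variable as Socs5.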

Other observations

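Socs1, Socs4, Socs5 and Socs7 had their lowest value in replicate 1 and their highest in replicate 3 in both genotypes, and Socs6 its lowest in replicate 1 and its highest in replicate 2 in both. In all, 5 of 8 members ranked the 3 numbered libraries alike in both genotypes, as did 21% of the 14864 genes tested. The labels do not say that a number marks a shared culture day or batch, and the cause was not tested.

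The SD of Socs3 was 42.1% of its mean in WT and 12.0% in Ikzf4-/- libraries, and that of Socs2 was 23.1% and 12.5%. For Socs1 it was the other way, 3.23% in WT and 11.8% in Ikzf4-/- libraries. With 3 libraries per genotype these spreads were not tested against each other.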
